A study of Mus musculus with 4 samples.

Results

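The AP-1 and immediate early genes described here are the 4 FOS genes (Fos, Fosb, Fosl1 and Fosl2), the 3 JUN genes (Jun, Junb and Jund), and Atf3, Egr1 and Ier2. They were taken by gene symbol, and all 10 were found among 21420 named genes. RNA had been sequenced from lung tumour cells of mice whose lungs received an adenovirus expressing Cre recombinase through the nose 10 weeks earlier. The 2 KL mice carried Lkb1fl/fl (floxed Stk11, a tumour suppressor kinase) within a Cre-dependent tumour model. The 2 KL25 mice were of the same model with the same Lkb1 alleles and were in addition Usp25-/-, lacking a deubiquitinase. Both groups thus shared the model and the Lkb1 alleles and received Cre, and no lung without tumour was compared. The promoter driving Cre is not given in the sources used here. Tumours were dissociated to single cells and incubated with CD45 magnetic beads before lysis, so the levels are those of dissociated cells and not of intact tumour.

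AP-1 is a dimeric transcription factor. FOS proteins pair with JUN proteins through a leucine zipper, JUN proteins can also pair with each other, and the dimers bind a short palindromic DNA element in target genes. Most of the genes are immediate early genes, which are transcribed within minutes of a stimulus from factors already present in the cell, downstream of the ERK and JNK kinases and the serum response factor. Their mRNAs are short-lived, and several are also induced when tissue is dissociated.

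The 120 bases before the RefSeq start of Fos, Fosb, Jun, Junb and Atf3 are shown because these 5 were the matched promoters that held TGACG, TGACATCA or TATAAA. Sequences are from RefSeq on GRCm38.p6, read 5′ to 3′ on the strand of the gene, and capitals mark TGACG (the core of a cAMP response element, on either strand), TGACATCA (an AP-1-like element) and TATAAA.
Fos (chr12:85473770-85473889, plus strand): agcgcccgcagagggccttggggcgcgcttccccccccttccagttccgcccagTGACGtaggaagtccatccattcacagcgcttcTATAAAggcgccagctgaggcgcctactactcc
Fosb (chr7:19310046-19310165, minus strand): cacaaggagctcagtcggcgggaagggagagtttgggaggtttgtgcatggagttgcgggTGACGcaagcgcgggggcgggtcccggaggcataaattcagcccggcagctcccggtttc
Jun (chr4:95052223-95052342, minus strand): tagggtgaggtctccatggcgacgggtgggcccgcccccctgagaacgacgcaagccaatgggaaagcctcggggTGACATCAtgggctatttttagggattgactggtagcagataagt
Junb (chr8:84978749-84978868, minus strand): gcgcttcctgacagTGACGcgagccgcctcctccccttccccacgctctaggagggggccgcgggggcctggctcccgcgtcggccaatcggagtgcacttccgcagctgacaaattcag
Atf3 (chr1:191183334-191183453, minus strand): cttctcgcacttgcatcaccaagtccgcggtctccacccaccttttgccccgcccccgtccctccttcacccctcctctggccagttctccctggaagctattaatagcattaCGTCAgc

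Promoters of 7 members were matched by symbol, over windows from 250 bases before to 50 after the start, on both strands. Those of Fosl1, Egr1 and Ier2 were not among the promoters available. TGACG stood in 4 of the 7 (Fos, Fosb, Junb and Atf3) and in 20.8% of all 32851 promoters. TGACATCA stood in Jun only among the 7, and in 3.62% of all promoters. TATAAA stood in Fos and Junb, and in 13.6% of all promoters. TGANTCA (7.81% of all promoters), TGACGTCA (1.79%), which contains TGACG, and the CArG box bound by serum response factor (1.63%) were in 0 of the 7 windows. Sites beyond the windows, or in the promoters of Fosl1, Egr1 and Ier2, could not be seen. The motifs were chosen with the sequences in view, and these matches describe letters in the windows only.

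The FPKM (reads scaled to the length of the gene and the depth of the library) summed to 525973 to 564975 per library, and the size factors, which rank the libraries by depth, ran from 0.823 to 1.30. Usp25 checked the genotype labels: its level was 2.65 FPKM and 1.71 FPKM in the 2 knockout libraries and 38.5 FPKM and 16.6 FPKM in the 2 KL libraries. One KL library, replicate 1, differed most from the others, with a correlation across genes of 0.874 to 0.885 with the other libraries, against 0.933 to 0.967 among those. The label gives CD45-negative cells, yet Ptprc, which encodes CD45, was at 43.3 to 123 FPKM, and all 10 leukocyte markers were detected in every library. Their summed level was 3199 and 3130.1 FPKM for KL25 and 4797 and 4156 FPKM for KL, with KL25 lower on average in 10 of 10. For 5 of these 10 the KL25 pair lay wholly below the KL pair, where 15.0% of all genes did so, and for the other 5 the libraries overlapped. The 10 epithelial markers summed to 4309.9 and 1616 FPKM for KL25 against 1144 and 949 FPKM for KL, with KL25 higher on average in 10 of 10, and 9 neutrophil markers to 2232 and 1315 FPKM for KL25 against 41929 and 786 FPKM for KL. Sums of 10 macrophage markers were 32757 and 33714 FPKM for KL25 against 13756 and 40783 FPKM for KL. Lyz2 made up most of these sums, at 31444 and 32571 FPKM for KL25 against 12613 and 38922 FPKM for KL. Marker by marker, KL25 lay wholly below KL for 2 of these 10 (Adgre1 and Csf1r), where 15.0% of all genes did so, and 8 overlapped. Those of 9 lymphocyte markers were 51.4 and 86.9 FPKM for KL25 against 24.0 and 85.1 FPKM for KL. The macrophage and lymphocyte sums thus overlapped between the groups. In such mixed samples fewer cells of a type and less RNA per cell cannot be told apart.

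Transcripts of this group were abundant in every library, and 0 of the 10 genes passed the test of KL25 against KL (limma, described with the counts further on). Usp25, the deleted gene, did not pass it either, at a log2 difference of -3.07 (SE 0.47; limma adjusted p = 0.942). The lack of a call therefore does not show that a gene is unchanged. Apart from Fosl1, each lay above at least 93.2% of all genes in every library. Together the 10 genes held 0.319% and 0.400% of the summed FPKM for KL25 against 0.424% and 0.452% in KL. Fos and Junb were the most abundant pair, with ranges over the 4 libraries that overlapped (417 to 629 FPKM and 449 to 622 FPKM). By the mean over the libraries Fosb and Atf3 came next, although Egr1 took place 3 in KL replicate 1, with ranges of Fosb and Atf3 that also overlapped, at 206 to 291 and 191 to 235 FPKM. The ranges of Ier2, Egr1, Jund and Jun overlapped one another between 88.5 and 207 FPKM. Fosl2 took place 9 and Fosl1 place 10 in each of the 4 libraries.

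**Figure D1:**
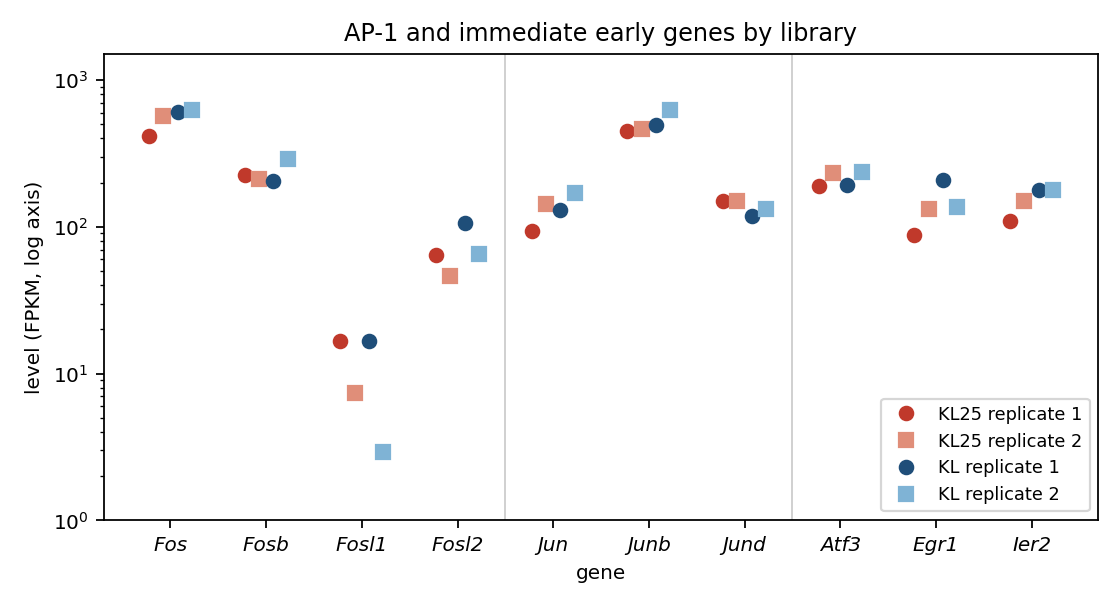
Level of each gene in each of the 4 libraries, in FPKM on a log axis, with FOS genes on the left, JUN genes in the middle and Atf3, Egr1 and Ier2 on the right; each point is 1 library, and no error bars are drawn. Every gene but Fosl1 lies at 46.4 FPKM or more in all libraries, and Fosl1 runs from 2.91 to 16.7 FPKM.

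Among the FOS genes, Fos and Fosb carried most of the transcript. Fos, the founding subunit, occupies chromosome 12, 85473890 to 85477273 (plus strand of GRCm38, used for all coordinates here). It measured 417 FPKM in KL25 replicate 1 and 569 FPKM in KL25 replicate 2, against 608 FPKM in KL replicate 1 and 629 FPKM in KL replicate 2; values of every gene below keep this order. The KL25 values were both lower than either KL value, although KL25 replicate 2 lay closer to KL than to the other KL25 library. The group means were 493 ± 107 FPKM for KL25 against 618 ± 14.7 FPKM for KL (SD, n = 2 each). On the log2(FPKM + 1) scale the difference was -0.34 (SE 0.37; limma adjusted p = 0.942).

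Fosb, a FOS protein that has a long and a truncated splice form, lies on chromosome 7 from 19302696 to 19310051 (minus strand). It was at 224 and 213 FPKM for KL25 against 206 and 291 FPKM for KL. The groups overlapped, since the highest and the lowest value both came from KL. Its log2 difference was -0.16 (SE 0.35; limma adjusted p = 0.960). Levels are given per gene, so the splice forms are not separated.

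Fosl2 and Fosl1 encode FRA2 and FRA1, FOS proteins that lack the transactivation domain of FOS and appear later after a stimulus. Fosl2 (chromosome 5, 32135801 to 32157842, plus strand) was at 63.9 and 46.4 FPKM for KL25 against 106 and 65.3 FPKM for KL. Its groups did not overlap, but KL25 replicate 1 and KL replicate 2 were nearly level, and KL replicate 1 stood well above both. The log2 difference was -0.61 (SE 0.39; limma adjusted p = 0.942).

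Fosl1 (chromosome 19, 5447547 to 5455946, plus strand) varied far more than any other member. It was at 16.7 and 7.35 FPKM for KL25 against 16.7 and 2.91 FPKM for KL, a 5.74-fold range. Each group held a high and a low library, so the groups overlapped fully. The log2 difference of 0.55 (SE 0.80; limma adjusted p = 0.944) turned to -0.54 without KL replicate 2. Fosl1 also had the lowest read count, with a mean normalized count of 212 in the authors' deposited table, against 2648 or more for each other member.

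Within the JUN family Junb was the dominant transcript. Junb, which is an activator or a weaker competitor of JUN depending on the partner, lies on chromosome 8 from 84974484 to 84978718 (minus strand). It was at 449 and 461 FPKM for KL25 against 496 and 622 FPKM for KL. The KL25 values were both lower than either KL value, with 455 ± 8.53 FPKM for KL25 against 559 ± 89.1 FPKM for KL (SD, n = 2 each), and the gap between the nearest libraries was smaller than that between the KL libraries. The log2 difference was -0.29 (SE 0.36; limma adjusted p = 0.943).

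Jun, the JUN subunit whose activity is raised by JNK phosphorylation and whose promoter carries the AP-1-like element shown above, lies on chromosome 4 from 95049034 to 95052222 (minus strand). It was at 92.9 and 144 FPKM for KL25 against 131 and 169.7 FPKM for KL. The groups overlapped, with replicate 2 the higher library in each, and the log2 difference was -0.36 (SE 0.38; limma adjusted p = 0.942).

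Jund, the JUN gene that is expressed steadily in unstimulated cells and restrains growth, lies on chromosome 8 from 70698949 to 70700616 (plus strand). It was at 151 and 150.0 FPKM for KL25 against 118 and 132 FPKM for KL. Jund was the only member of the 10 whose KL25 pair lay wholly above the KL pair, and it had the smallest spread within groups, 0.08 as the SD on the log2 scale. The group means were 150.3 ± 0.496 FPKM and 125 ± 9.86 FPKM (SD, n = 2 each). The log2 difference was 0.26 (SE 0.31; limma adjusted p = 0.942), and it stayed between 0.18 and 0.34 when any 1 library was left out.

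Atf3, a stress-induced bZIP factor that pairs with JUN proteins, was the member with the smallest difference. Its gene spans chromosome 1 from 191170296 to 191218039 (minus strand), so that the start shown above lies within it. Atf3 was at 191 and 232 FPKM for KL25 against 192 and 235 FPKM for KL. The replicates 1 matched each other across genotypes, as did the replicates 2, and the log2 difference was -0.01 (SE 0.34; limma adjusted p = 0.997). Its 95% interval, -0.87 to 0.85, still allows a change of 1.80-fold upward or to 0.547 of the KL level.

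Egr1, a zinc finger factor switched on through serum response factor, lies on chromosome 18 from 34859823 to 34864984 (plus strand). It was at 88.5 and 133 FPKM for KL25 against 207 and 137 FPKM for KL. The groups did not overlap, but KL25 replicate 2 and KL replicate 2 differed by less than any pair of replicates, and KL replicate 1 was well above the rest. Egr1 had the largest negative log2 difference of the 10, -0.63 (SE 0.40; limma adjusted p = 0.942).

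Ier2, an immediate early nuclear protein outside the AP-1 dimer, lies on chromosome 8 from 84661331 to 84662852 (minus strand). It was at 109 and 149.9 FPKM for KL25 against 178 and 179 FPKM for KL. The KL libraries were almost level (179 ± 0.576 FPKM, n = 2), both above the KL25 libraries (129 ± 28.9 FPKM, n = 2). Ier2 differed by -0.48 on the log2 scale (SE 0.34; limma adjusted p = 0.942), between -0.71 and -0.25 when any 1 library was left out.

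Set side by side, 8 of the 10 genes were lower on average in KL25 and Jund and Fosl1 were higher, with 95% intervals that all include 0. All 10 passed the level filter of limma (1 FPKM or more as the average of KL25 or of KL). Of these, 0 were called at an adjusted p below 0.05 in either direction, where 0% of 12476 genes tested were called higher and 0% lower. Without adjustment, 0 members had p below 0.05 either, with a background of 2.16% of genes on the higher and 1.07% on the lower side. The log2 difference was negative in 8 of 10 members and in 46.9% of all genes tested, and positive in 2 members and in 53.1% of all genes; with quantile normalization 7 members were negative, Atf3 being at 0.07. The median was -0.32 over the members and 0.03 over all genes. The KL25 pair lay wholly below the KL pair for 5 members (Fos, Fosl2, Junb, Egr1 and Ier2), where 15.0% of all genes did so. It lay above for Jund alone, where 19.1% did so. With quantile normalization it lay below for 3 members, and the share of all genes was not counted there. The genes can vary together by library, so these counts are no test.

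The median difference of the members was smallest in size without KL25 replicate 1. KL25 replicate 1 held the lowest value for 6 of the 10 genes and KL replicate 2 the highest for 6. Without KL25 replicate 1 the median difference was -0.16, and without KL25 replicate 2, KL replicate 1 and KL replicate 2 it was -0.34, -0.35 and -0.25. The signs of Fosb and Atf3 turned as well, to 0.09 for Fosb without KL replicate 2, and to 0.13 for Atf3 without KL replicate 2 or without KL25 replicate 1. The leukocyte and epithelial marker sums given above also lay apart between the groups, whereas the macrophage, lymphocyte and neutrophil sums overlapped. Endothelial markers, 10 in number, summed to 96.8 and 182 FPKM for KL25 against 113 and 265 FPKM for KL, which also overlapped. All 10 were lower on average in KL25 and highest in KL replicate 2, and 7 were lowest in KL25 replicate 1. Fibroblast markers summed to 49.1 and 133 FPKM for KL25 against 56.4 and 63.8 FPKM for KL, with 6 of 10 higher on average in KL25. The part of these cell types in the values of the members was not tested. For a single gene, the smallest p that an exact two-sided permutation test can give with 2 against 2 libraries is 0.333.

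**Figure D2:**
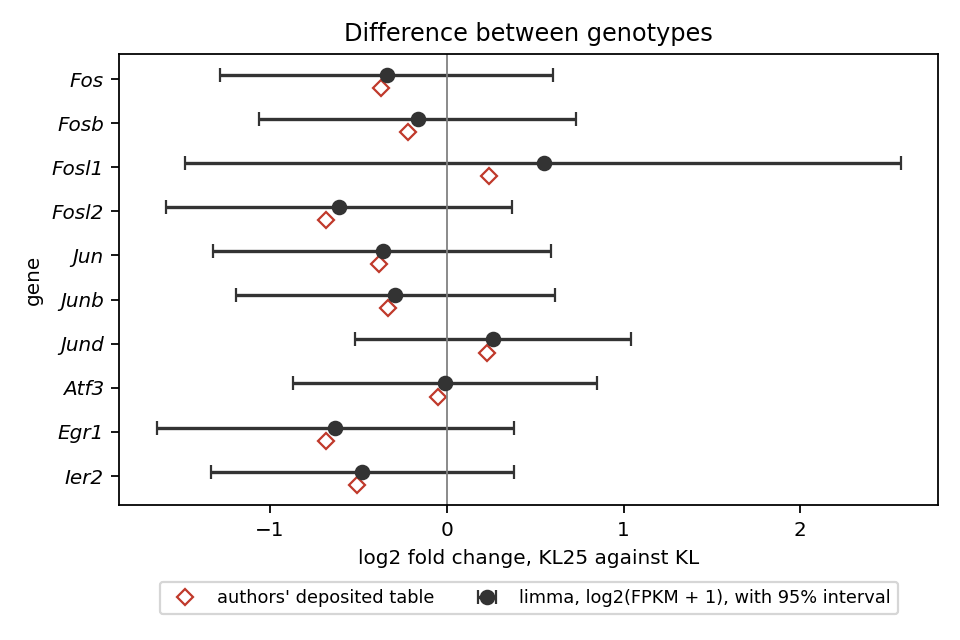
Log2 fold change of each gene between KL25 and KL; filled circles are limma estimates on log2(FPKM + 1) with their 95% intervals (n = 2 per group), and open diamonds are values of the authors' deposited table. All 10 intervals include 0, and 8 of the 10 limma estimates are negative (7 with quantile normalization, where Atf3 is at 0.07).

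The authors' deposited table, which compares the same 4 libraries from counts, gave the same signs. Its log2 fold change was negative for 8 members, with a median of -0.35. The largest in size were -0.68 for both Fosl2 and Egr1 in the authors' deposited table, with standard errors of 0.62 and 0.59. The lowest unadjusted p in the authors' deposited table was 0.178, for Ier2. None of the 10 reached an adjusted p below 0.05 there (each adjusted p = 1.000), whereas the authors' deposited table has 0.0880% of 14770 genes higher and 0.0339% lower at that threshold, Usp25 among them.

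The make-up of each family was similar in the 4 libraries. Of the summed FPKM of the FOS family, Fos took 57.8% and 68.1% for KL25 and 64.9% and 63.6% for KL. Fosb took 22.0% to 31.0%, Fosl2 5.55% to 11.4% and Fosl1 0.295% to 2.31%. Junb took 61.0% to 67.3% of the JUN family. Jund took 21.8% and 19.9% of it in KL25 and 15.9% and 14.3% in KL, so its share was higher in both KL25 libraries. Jun took 13.4% and 19.1% in KL25 and 17.6% and 18.4% in KL. The FOS genes summed to 722 and 835 FPKM for KL25 against 937 and 988 FPKM for KL, while the JUN genes summed to 692 and 755 FPKM for KL25 against 746 and 924 FPKM for KL. The FOS sum over the JUN sum was 1.07 ± 0.0455 in KL25 and 1.16 ± 0.133 in KL (SD, n = 2 each), a difference smaller than the SD of KL. These are shares of transcript, which do not give shares of protein or of dimers.

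**Figure D3:**
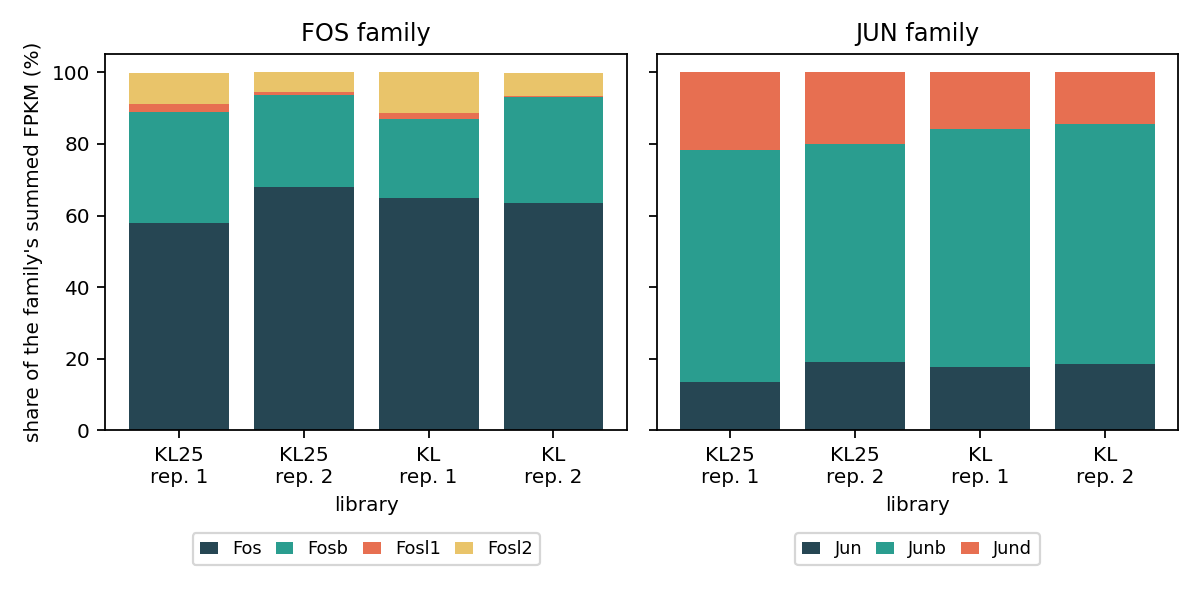
Share of each gene in the summed FPKM of its family, in percent, for the FOS genes (left) and the JUN genes (right); each bar is 1 library. Fos and Junb take the largest share in every bar, and Jund takes 14.3% to 21.8%.

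Most other immediate early genes were at their highest in KL replicate 1. Of 36 listed genes 35 passed the level filter and 0 were called. The log2 difference was negative in 31 of 35, with a median of -0.50. For 14 of the 35 the KL25 pair lay wholly below the KL pair, where 15.0% of all genes did so. KL replicate 1 held the highest value of 27 of these 35 genes, against 2 of the 10 members and 30.2% of all genes tested. The median difference of KL replicate 1 from KL replicate 2 was 0.97 (log2) over these genes and -0.10 over the members. Without KL replicate 1 the median fold change of the other immediate early genes shrank to -0.10, and without KL replicate 2 it was -1.0, whereas it was -0.51 and -0.57 without KL25 replicates 1 and 2.

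The 4 genes of that list with the lowest unadjusted p followed this pattern. Gadd45b, a stress-response protein that acts on p38 and JNK signalling, was at 179 and 167 FPKM for KL25 against 587 and 299 FPKM for KL (log2 difference -1.27, SE 0.44; limma adjusted p = 0.942). Csrnp1, a nuclear protein induced by AXIN1, was at 57.3 and 63.3 FPKM for KL25 against 148 and 84.0 FPKM for KL. Plk2, a polo-like kinase, was at 29.5 and 47.1 FPKM for KL25 against 105 and 53.5 FPKM for KL. Nfkbiz, a nuclear regulator of NF-kB target genes, was at 73.2 and 61.0 FPKM for KL25 against 391 and 81.5 FPKM for KL. For all 4 genes the KL25 pair lay wholly below the KL pair, as for 14 of the 35 genes of the list. Choosing genes by their p in this same comparison favours such separation, so it adds no support. In each of the 4, KL replicate 1 stood at least 1.5 times above KL replicate 2. The neutrophil markers were also highest in KL replicate 1, all 9 of them, as were 8 of the 10 leukocyte markers, and their part in these levels was not tested.

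**Figure D4:**
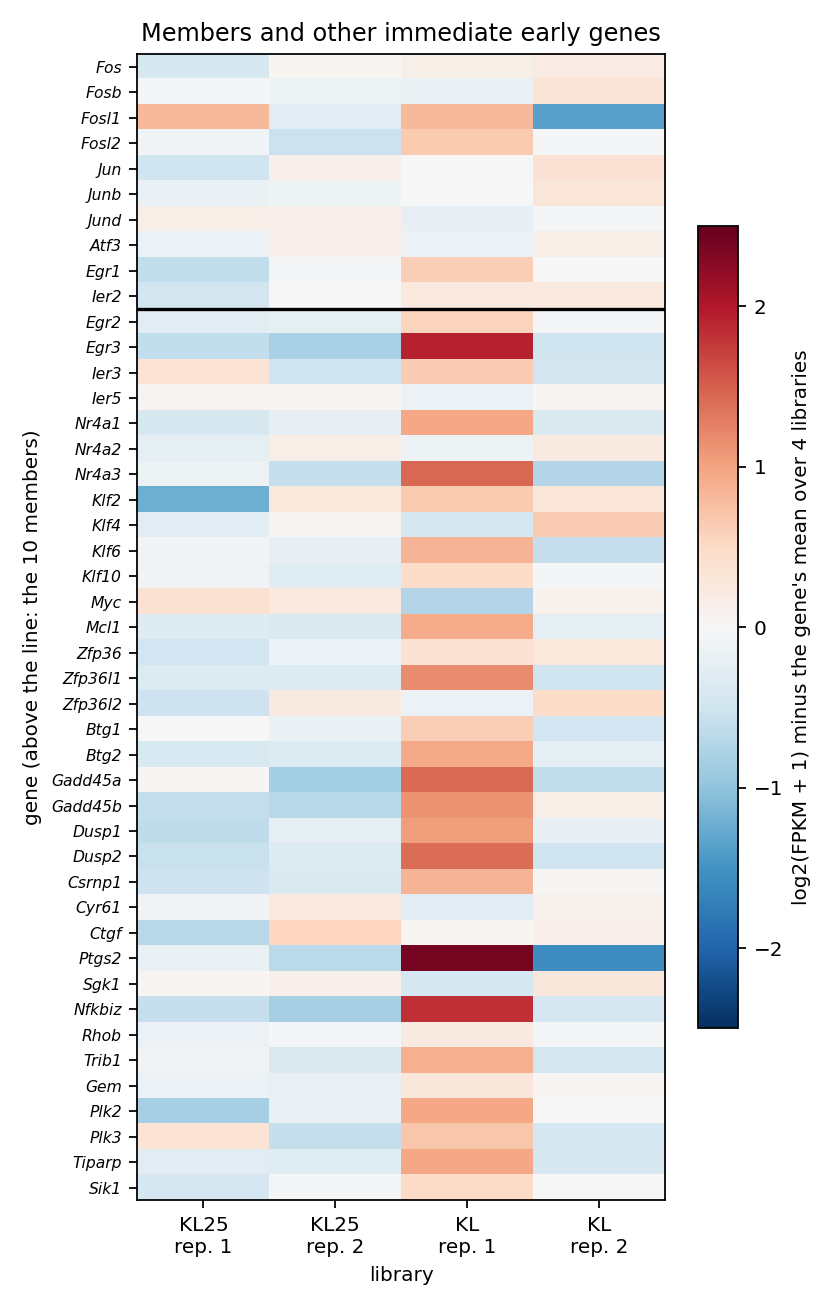
Level of the 10 members (above the line) and of 35 other immediate early genes in each library, as log2(FPKM + 1) minus the mean of the gene over the 4 libraries. The column of KL replicate 1 is the highest for 27 of the 35 genes below the line and for 2 of the 10 above it.

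The other bZIP proteins that pair with FOS or JUN were also mostly highest in KL replicate 1, 8 of the 12 tested. Of 13 listed genes 12 passed the filter, 0 were called, and 10 had a negative log2 difference (median -0.14). Batf, a FOS-like partner of JUN proteins in immune cells, was at 19.9 and 18.9 FPKM for KL25 against 70.8 and 25.3 FPKM for KL. Jdp2, a repressor that pairs with JUN, was at 26.8 and 16.9 FPKM for KL25 against 119 and 18.2 FPKM for KL, and Batf2 at 0.423 and 1.88 FPKM and at 13.7 and 0.887 FPKM. Each of these 3 was highest in KL replicate 1. Atf4, a factor of the integrated stress response, was higher in KL25, with 194 and 169.6 FPKM for KL25 against 137 and 162 FPKM for KL. The list median was 0.17 without KL replicate 1, -0.62 without KL replicate 2, and -0.18 and -0.21 without KL25 replicates 1 and 2.

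Kinases and factors upstream of the immediate early genes went both ways, with log2 differences from -0.63 (Map2k7) to 0.49 (Mapk3). Of 22 listed genes all passed the filter, 0 were called, and the median log2 difference was -0.07, with 13 negative. Mapk3, which encodes the kinase ERK1, was at 159 and 158 FPKM for KL25 against 65.5 and 193 FPKM for KL, so the groups overlapped. Map2k7, a kinase that activates JNK, was at 3.43 and 8.01 FPKM for KL25 against 6.53 and 11.8 FPKM for KL. Elk3, a partner of serum response factor, was at 9.94 and 9.92 FPKM for KL25 against 10.8 and 13.5 FPKM for KL, and Rps6ka5 (MSK1, a kinase that phosphorylates histones at immediate early genes) at 2.58 and 2.88 FPKM and at 3.44 and 3.38 FPKM. For Elk3 and Rps6ka5 the KL25 pair lay wholly below the KL pair, by small amounts. Stk11 was at 16.9 and 20.7 FPKM for KL25 against 19.5 and 23.9 FPKM for KL, and the groups overlapped.

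Proteins that govern the turnover of JUN were likewise not called, 0 of 8, with a median of -0.15. Cops5, a COP9 signalosome subunit first known as a JUN-binding protein, was at 40.2 and 39.4 FPKM for KL25 against 23.6 and 30.7 FPKM for KL (log2 difference 0.55, SE 0.30; limma adjusted p = 0.942). Usp28, the paralog of Usp25 and a deubiquitinase of JUN in mouse gut, was at 1.68 and 2.20 FPKM for KL25 against 3.34 and 2.57 FPKM for KL. The groups did not overlap for either gene. Cul4a, a scaffold of ubiquitin ligases, was at 10.2 and 13.3 FPKM for KL25 against 16.2 and 12.9 FPKM for KL. Rfwd2 (COP1, a ubiquitin ligase of JUN) was at 8.73 and 10.5 FPKM for KL25 against 14.6 and 9.02 FPKM for KL, with groups that overlapped as for Cul4a. The list median was -0.03 without KL25 replicate 1 or KL replicate 1, -0.23 without KL25 replicate 2 and -0.26 without KL replicate 2.

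Textbook targets of AP-1 lay mostly on the positive side. Of 16 listed genes 15 passed the filter, 0 were called, and 12 had a positive log2 difference (median 0.42). Mmp13, a collagenase, was at 15.2 and 6.97 FPKM for KL25 against 4.82 and 1.22 FPKM for KL (log2 difference 1.66, SE 0.60; limma adjusted p = 0.942), with each replicate 1 above its replicate 2, as for Fosl1. Ccnd1, the G1 cyclin D1, was at 27.1 and 32.1 FPKM for KL25 against 18.0 and 19.0 FPKM for KL. Mmp12, the macrophage elastase, was at 49.4 and 62.7 FPKM for KL25 against 35.2 and 41.1 FPKM for KL, and Timp1, an inhibitor of such proteases, at 29.1 and 26.1 FPKM and at 24.4 and 14.6 FPKM. In these 4 of the 15 genes the KL25 pair lay wholly above the KL pair, where 19.1% of all genes did so. Leaving out KL25 replicate 1 gave a list median of 0.14 and leaving out KL replicate 2 gave 0.17, against 0.53 without KL25 replicate 2 and 0.67 without KL replicate 1. The epithelial markers were likewise higher on average in KL25, 10 of 10, and their part in the levels of these targets and of the heat shock genes that follow was not tested.

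Heat shock genes, which like immediate early genes respond to handling and stress, were all on the positive side. Of 12 listed genes 12 passed the filter, 0 were called, 12 had a positive log2 difference (median 0.39), and for 8 the KL25 pair lay wholly above the KL pair, as in 19.1% of all genes. Hspa1a and Hspa1b, near-identical copies of the inducible HSP70 gene whose reads cannot be assigned with certainty, were at 27.6 and 37.2 FPKM and at 26.0 and 30.1 FPKM for KL25, and at 13.6 and 25.4 FPKM and at 11.7 and 20.1 FPKM for KL. Hsph1, an HSP70 exchange factor, was at 11.0 and 8.57 FPKM for KL25 against 7.28 and 5.27 FPKM for KL. Dnaja1, an HSP40 co-chaperone, was at 32.5 and 27.3 FPKM for KL25 against 22.2 and 19.4 FPKM for KL. The list median was 0.35 to 0.51 when any 1 library was left out. Over these 6 lists, limma called 0 genes, and 2 had an unadjusted p below 0.05, Gadd45b and Mmp13. The authors' deposited table called 0 of their genes at an adjusted p below 0.05. The sign counts of the members and of these lists were the same when each library was rescaled by its median ratio, except that 16 of the 22 upstream genes were then negative. With quantile normalization they were also the same, except for 15 upstream genes negative and the turn of Atf3.

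**Figure D5:**
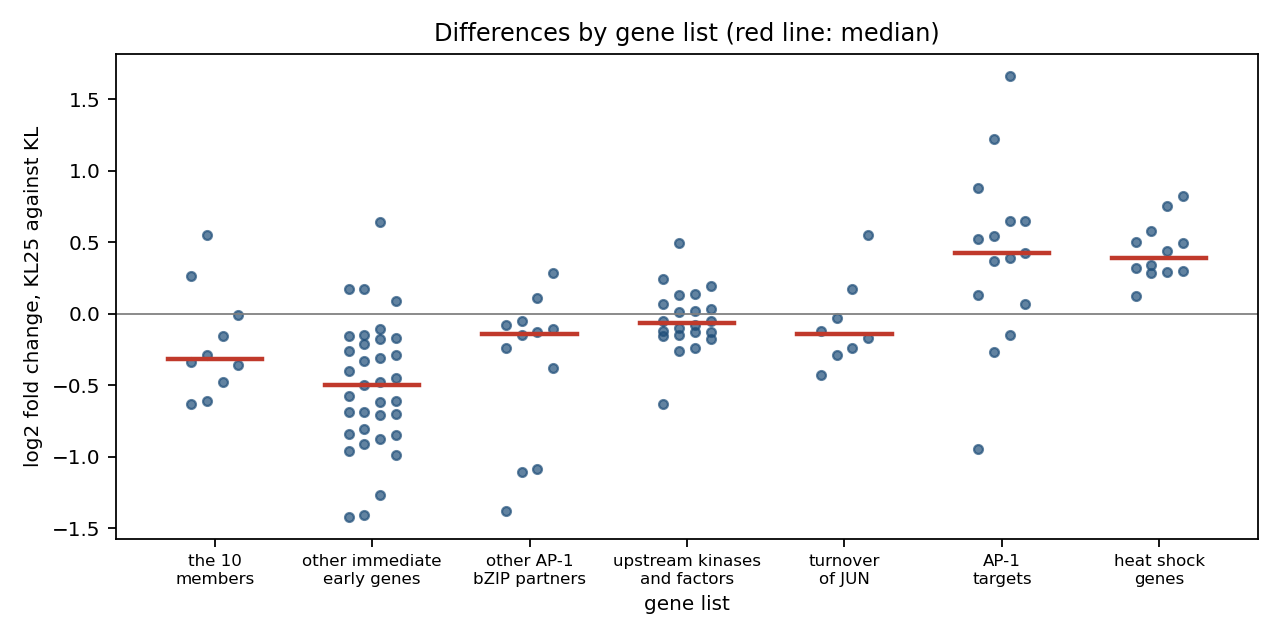
Log2 fold change between KL25 and KL for the genes of each list that passed the level filter; each point is 1 gene and the red line is the median of the list. The members have a median of -0.32, the other immediate early genes -0.50, the AP-1 targets 0.42 and the heat shock genes 0.39.

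Among themselves the members fell into close and distant pairs. Likeness was measured as the Euclidean distance between levels on the log2(FPKM + 1) scale, each centred on its mean over the 4 libraries. Fos and Ier2 were closest, at a distance of 0.14, followed by Fosb and Junb at 0.19. Jun was nearest to Fos (0.26), Atf3 to Fosb (0.32), Jund to Atf3 (0.35) and Egr1 to Ier2 (0.46). Fosl2 was nearest to Egr1 (0.74). Fosl1 stood alone, with its nearest member, Fosl2, at 1.62. Outside the lists, Agtpbp1, Tbcel, Rab5b, Bap1, Isoc1 and Gskip came closest to the mean profile of the 10 genes, at distances of 0.025 to 0.044. That profile was nearly flat, at -0.14 and -0.06 for KL25 against 0.19 and 0.02 for KL. It peaked in KL replicate 1, where 2 of the 10 members were highest, against 6 in KL replicate 2. Nearness to it is thus nearness to an average and not to single members. Of 7363 genes compared, 509 lay within 0.25 of that profile, while the members themselves lay at 0.33 (Fos) to 1.80 (Fosl1) from it. The ratio of the highest to the lowest library had a median of 1.57 over the 10 genes and of 1.86 over 1418 genes averaging 50 FPKM or more, both ratios taken after adding 1 FPKM.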

How the data were processed

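Per the labels' protocols, stranded mRNA libraries were sequenced, cutadapt trimmed the reads, and HTSeq counted them per gene after alignment to GRCm38. The submitters' processing notes list GRCm38 and GRCm39. Neither the aligner nor any version is named there, and the strand setting of the counting is unstated, so overlapping antisense reads cannot be told apart. The deposited values per library were read as FPKM from the values, since the header names no unit. Per the file headers, the authors also deposited, per gene, a signal (the average normalized count over the 4 libraries), a score (their test statistic), the log2 fold change with its standard error, and p-values with and without adjustment. Size factors were read from the deposited means, whose values for genes seen in 1 library were whole multiples of a step (100% within 0.01). Whole reads could not be read back from the FPKM, so intervals for counting error are left out.

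From these values log2(FPKM + 1) was fitted by limma (version 3.58.1, under R 4.3.3), letting the prior variance follow the level, for the 12476 genes averaging 1 FPKM or more in KL25 or in KL. The comparison was KL25 against KL without covariates, with Benjamini-Hochberg adjustment over all genes and 0.05 as the threshold. Adding 1 shrinks the fold changes of weakly expressed genes. The design text gives 2 mice per group. Of the rows 25 with names turned into dates were left out. Alternatives covered pseudocounts of 0.1 and 5, filters, scaling, trend, replicate number and leaving out each library. Named list genes are up to 4 per list with the lowest unadjusted p. Members and lists were chosen with earlier results of these data known. Gene coordinates are from GENCODE annotation of GRCm38. One further allele shared by all groups is not reported here.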

Additional observations from a re-analysis of the deposited data

How the results depend on the processing

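Under all 13 alternative fits, the authors' deposited table included, 0 members were called, with a lowest adjusted p of 0.249 for any member, and the median log2 fold change of the members stayed negative (-0.35 to -0.16). Over all genes, 0 were called in limma and 18 in the authors' deposited table. The sign of Atf3 turned with quantile normalization (0.07), and leaving out either KL replicate 2 or KL25 replicate 1 also turned it, to 0.13 (range -0.16 to 0.13 over libraries left out). Without KL replicate 2, Fosb turned to 0.09 (range -0.41 to 0.09) and Fosl1 to -0.54 (range -0.54 to 1.64). The cause of these turns was not tested. Leaving out 1 library gave 1 to 2 members with KL25 above KL and 5 to 8 with KL25 below KL. There the lone library of a group is assumed to vary like the other group, and overlap is less likely by construction. With quantile normalization 3 members lay below, against 5 as deposited. The share of all genes was not counted under these settings, so these counts stand without a background. The pseudocount, filter, trend and block cannot change whether the libraries of a member overlap. The labels number replicates 1 and 2 in both groups without saying that a number is shared by more than name, and deviations of same-numbered libraries correlated at 0.152. With the replicate number as a block (replicate block) the median was -0.32 and 0 members were called. With 2 libraries per group, the intervals allow changes of more than 1.5-fold in at least 1 direction for all 10 genes.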
